A study of Mus musculus with 6 samples.

Results

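Integrins are receptors built from an alpha and a beta subunit that tie a cell to the matrix around it. The 10 subunit genes described here, 6 alpha and 4 beta, were taken by symbol from a table of 14515 mouse genes, and each symbol matched 1 row. Expression was measured by RNA sequencing in 6 libraries of muscle stem cells (satellite cells), with 2 libraries in each of 3 groups. The groups are labelled wild type (wt), mdx, and mdx/Ripk3mKO. The mdx mouse lacks functional dystrophin through a point mutation and serves as a model of Duchenne muscular dystrophy. Ripk3 is a kinase needed for necroptosis, an inflammatory form of cell death. The labels do not spell out mKO and name no driver for it, and neither strain nor age is stated there.

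The sources differ on which cells were sequenced. The labels speak of resting cells taken straight from sorting, with 10000 to 20000 cells per library. The series text speaks of wild-type cells collected at 72 hours below a porous membrane, with wt, mdx or mdx/Ripk3mKO cells above it, so that the genotype would be that of the neighbouring cells. The wt and mdx groups differ, on either account, by the labelled genotype of the cells sequenced or of the cells above them, and only the third group carries the Ripk3 change. The sources do not tell if a group's 2 libraries stem from different animals or cultures, and every p-value here therefore reflects only library-to-library spread, which may be technical. Both mdx columns carry the same header and are called library 1 and 2 in column order.

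All 6 libraries carried the muscle programme. Summed over 8 satellite cell and myoblast markers, the level lay between 5180 and 5863 CPM, the scaled counts relative to the library total (the usual CPM scale). Calcr, a marker of resting satellite cells and the ninth on that list, has no row in the table. Pax7, the transcription factor that marks satellite cells, lay between 84.6 and 103 CPM, and Myog, which drives terminal differentiation, between 1300 and 1698 CPM. Mki67, a gene of dividing cells, lay between 660 and 820 CPM. Which account of the cells holds was not tested. Ripk3 lay between 17 and 45 scaled counts and its values overlapped between all groups, so it does not check the labels. Library 1 of mdx/Ripk3mKO stood apart in sex-linked RNA, with 6918 scaled counts of Xist against 164 to 666 in the other libraries and 373 of Ddx3y against 1543 to 1785. The deposited counts had been scaled to a common level, with totals from 20611974 to 21037153. From skipped and doubled whole numbers, the divisors used in that scaling were estimated at 0.871 to 0.955 for the wt and mdx libraries and 1.204 and 1.206 for mdx/Ripk3mKO, so the deeper libraries are all of 1 group.

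Each integrin binds its ligands outside the cell through the paired heads of both subunits, and inside the cell the beta tail recruits talin and kindlin, which connect to actin. In skeletal muscle the pair of alpha 7 and beta 1 is the main laminin receptor and works beside the dystrophin complex at the fibre surface. Satellite cells sit under the basal lamina, whose laminin and other proteins they hold through beta 1 integrins, and alpha 7 and beta 1 are commonly used to sort them. Beta 4 is an exception in the family: it pairs with alpha 6, has a long tail that binds plectin, and is best known from the hemidesmosomes of epithelia.

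The members lie on 6 chromosomes. Itga4, Itga6 and Itgav are on chromosome 2, and Itga3, Itgb3 and Itgb4 on chromosome 11. RefSeq promoter windows, taken here as the 250 bases before a gene start on GRCm38.p6, were found for 6 of the 10 members, with 7 windows in all because Itga3 has 2 starts. Itga6, Itga7, Itgb3 and Itgb4 had no entry. The windows of the most abundant member, Itgb1, and of the scarce Itga4 are shown because these genes stand near opposite ends of the range of levels below. Capitals mark the GC box GGGCGG or its reverse complement CCGCCC, the letters recognised by Sp family factors.
Itgb1 promoter, chr8:128685404-128685653, plus strand: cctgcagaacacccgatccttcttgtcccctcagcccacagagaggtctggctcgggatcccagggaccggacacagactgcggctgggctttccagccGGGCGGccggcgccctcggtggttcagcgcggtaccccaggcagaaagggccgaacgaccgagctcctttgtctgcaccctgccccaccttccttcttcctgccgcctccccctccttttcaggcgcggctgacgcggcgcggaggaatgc
Itga4 promoter, chr2:79255176-79255425, plus strand: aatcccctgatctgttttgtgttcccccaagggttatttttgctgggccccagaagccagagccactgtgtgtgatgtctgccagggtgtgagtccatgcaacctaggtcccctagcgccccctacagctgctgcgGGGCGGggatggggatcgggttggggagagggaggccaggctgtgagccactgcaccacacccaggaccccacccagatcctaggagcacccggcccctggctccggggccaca
The Itgb1 window held 21 CpG pairs and that of Itga4 held 6, which is also the median of 32851 RefSeq windows. A GC box on either strand was present in 6 of the 7 member windows and in 32.7% of all windows. The E-box CANNTG, the letters that myogenic factors of the MyoD family can bind, was present in 5 of 7 member windows and in 66.2% of all, and the Itgb1 window had none. Both motifs were searched on both strands, occurrences of the 2 can share an end base, and a match is a description of the sequence alone.

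Levels of the members, in CPM per kilobase of exon, spanned a 1270-fold range. Exon length merges all annotated transcripts, so the level of a gene read mainly from shorter transcripts is understated. Itgb1 was highest in every library, at 264 ± 9.58 (SD over 6 libraries; range 251 to 274). Itga7 followed at 89.7 ± 3.55, then Itga3 at 30.2 ± 3.41 and Itga5 at 17.9 ± 0.468. Itgb4 (12.0 ± 1.95), Itgav (11.6 ± 0.961) and Itga6 (10.4 ± 0.397) had overlapping ranges, and no order can be read among them. Itgb5 was at 3.11 ± 0.383. Itga4 (0.285 ± 0.0653) and Itgb3 (0.208 ± 0.0299) were the lowest, and their ranges met as well. Every other pair of neighbours in this order had ranges that did not overlap. Among all genes of the table Itgb1 stood at the 99.3rd percentile of level per length and Itgb3 at the 8.05th.

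**Figure D1:**
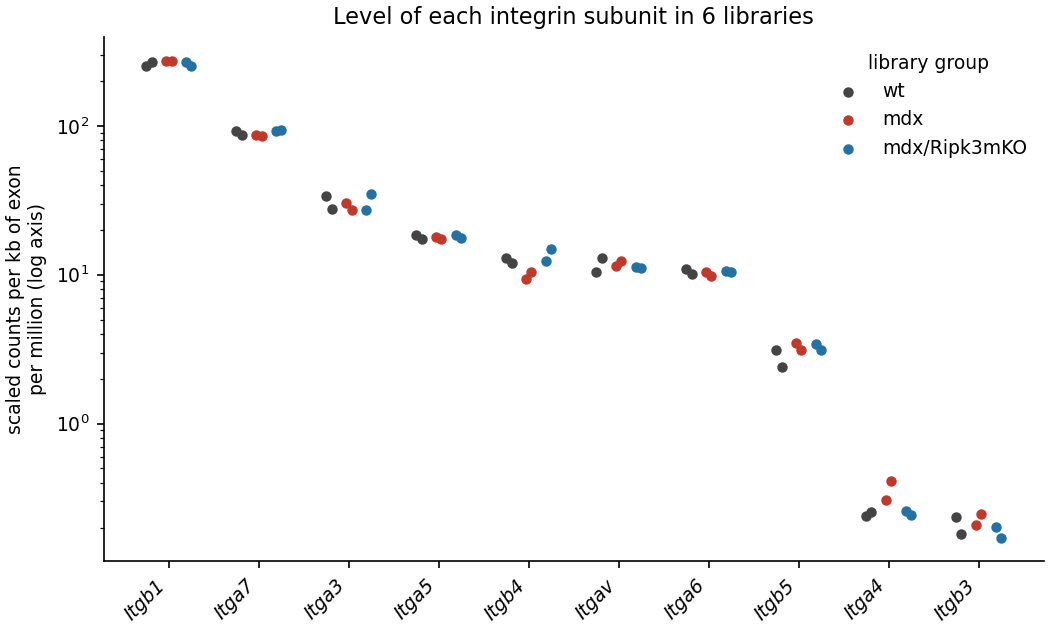
Level of each of the 10 integrin subunits (CPM per kilobase of exon, log axis) in the 6 libraries; each point is 1 library, coloured by group. Itgb1 lies between 251 and 274, Itga4 and Itgb3 lie under 0.410, and only within the groups Itgb4, Itgav and Itga6, and Itga4 and Itgb3, do the ranges of neighbours overlap.

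Among the members, Itga7 was the most abundant alpha chain and Itgb1, which other alpha chains share, the most abundant beta chain. Itga7 made up 55.2% to 57.6% of the summed level of the 6 alpha members in each library, and Itgb1 made up 93.2% to 95.4% of the 4 beta members. Itgb1 stood at 1.6 to 1.9 times the summed level of the 5 alpha members other than Itgav, all known partners of beta 1 (Itga3, Itga4, Itga5, Itga6 and Itga7). For the alpha v receptors, which bind vitronectin and other proteins with an RGD motif, Itgb5 was 12.7 to 18.1 times as abundant as Itgb3. Itgb6, an alpha v partner that is not among the members, had a higher mean level than either, at 15.3 CPM per kilobase. The shares and ratios depend on the merged exon lengths used, 4081 bases for Itgb1 against 8092 for Itga7 and 13978 for Itga4. These are levels of RNA, and pairing at the cell surface was not measured.

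Itgb1 (ENSMUSG00000025809, mm10 chromosome 8, 128685654 to 128733200, plus strand) encodes the beta chain shared by all of those 5 alpha partners. Its scaled counts were 21380 and 22551 in the wt libraries, 23511 and 22780 in the mdx libraries and 22887 and 21293 in those of mdx/Ripk3mKO. Both mdx libraries were above both wt libraries, while the mdx/Ripk3mKO libraries overlapped both groups. The log2 difference between mdx and wt was 0.08 ± 0.05 (95% interval -0.03 to 0.19, limma adjusted p = 0.845). In such bulk samples fewer cells of a type and less RNA per cell cannot be told apart.

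Itga7 (ENSMUSG00000025348, chromosome 10, 128933818 to 128958282, plus strand), the laminin receptor chain of muscle, was nearly as steady. Scaled counts were 15613 and 14510 in the wt libraries, 14735 and 14344 in the mdx libraries and 15700 and 15695 in those of mdx/Ripk3mKO. The mdx/Ripk3mKO libraries lay above all others, by little. Against mdx the log2 difference was 0.11 ± 0.05 (95% interval 0.00 to 0.22, unadjusted p = 0.0429, limma adjusted p = 0.417), and between mdx and wt it was -0.05 ± 0.05 (adjusted p = 0.898).

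Itgb4 (ENSMUSG00000020758, chromosome 11, 115974709 to 116008412, plus strand) was the member that differed most clearly between the groups. Scaled counts were 1876 and 1748 in the wt libraries, 1388 and 1501 in the mdx libraries and 1822 and 2181 in those of mdx/Ripk3mKO. Both mdx libraries were the lowest of the 6, and the wt values overlapped those of mdx/Ripk3mKO. Itgb4 was higher in mdx/Ripk3mKO than in mdx by a log2 difference of 0.47 ± 0.08 (95% interval 0.29 to 0.64; 1.38-fold), which passed the threshold of 0.05 narrowly (limma adjusted p = 0.0476). It was the single member of 10 past the threshold in that comparison, where 0.206% of all 14077 tested genes were called and 0.0852% were called as higher. By p it ranked 28 among all genes. Between mdx and wt the log2 difference was -0.33 ± 0.08 (95% interval -0.50 to -0.15), which did not pass (limma adjusted p = 0.448). Against wt, mdx/Ripk3mKO was at 0.14 ± 0.08 (limma adjusted p = 1). The F-test over the 3 groups gave Itgb4 an adjusted p of 0.116 in limma, where 0.0781% of all genes passed. Of the members 2, Itgb4 and Itga4, had an unadjusted F-test p under 0.05, as did 7.87% of all genes. The first pair of comparisons shares the mdx libraries, so a low mdx value enters both.

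The call for Itgb4 rested on several libraries and on the way the spread was estimated. It remained without mdx/Ripk3mKO library 1, the library that stood apart in sex-linked RNA (log2 difference 0.60, adjusted p = 0.00106). It did not pass without mdx/Ripk3mKO library 2 (0.34, adjusted p = 0.156), mdx library 1 (0.41, adjusted p = 0.19), mdx library 2 (0.52, adjusted p = 0.141), wt library 1 (0.47, adjusted p = 0.19) or wt library 2 (0.47, adjusted p = 0.194). Of 14 other settings 5 kept adjusted p under 0.05, and the log2 difference stayed between 0.34 and 0.60 in all of them. In the 4 libraries of mdx and wt alone, the lower value in mdx passed the threshold, at the same log2 difference of -0.33 (adjusted p = 0.0324).

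**Figure D2:**
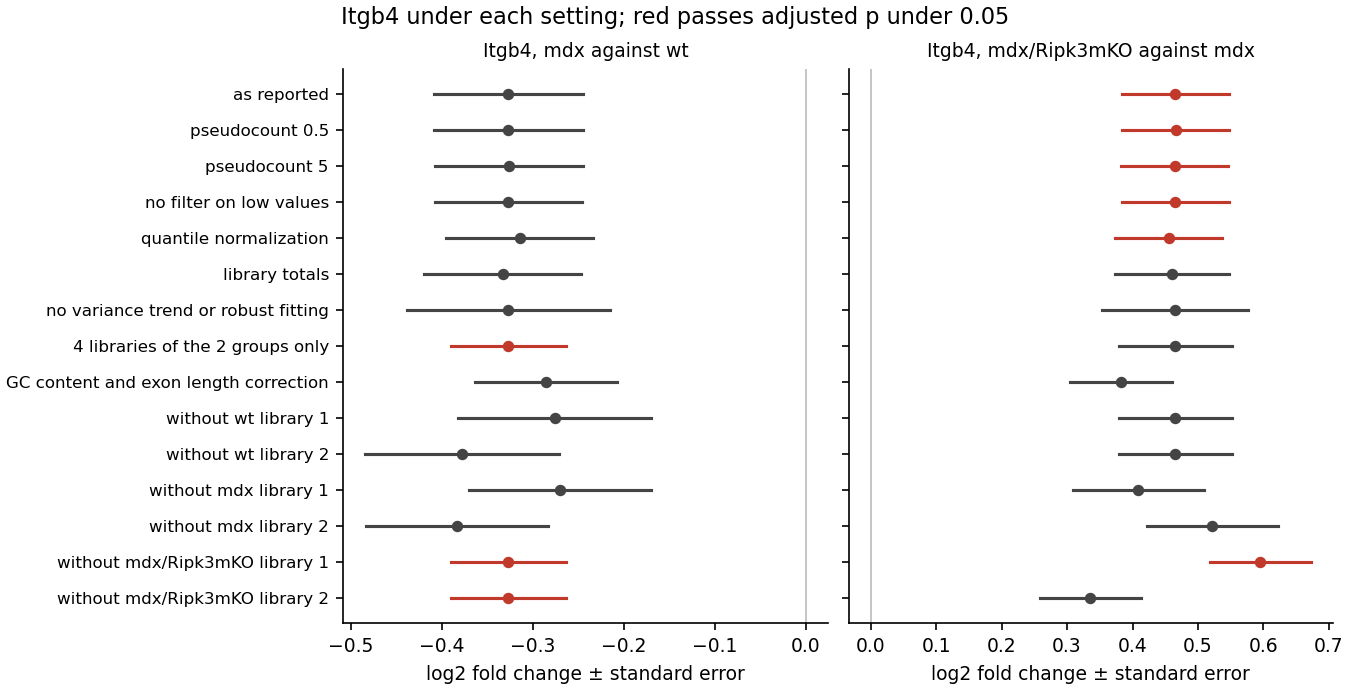
Log2 fold change of Itgb4 (points) with its standard error (lines) for mdx against wt (left) and mdx/Ripk3mKO against mdx (right), as reported and under 14 other settings, with red for an adjusted p under 0.05. The right-hand values stay between 0.34 and 0.60 while the call comes and goes, and the left-hand values stay between -0.38 and -0.27.

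Of the annotated exon bases of Itgb4, 7.65% also lie in exons of B230344G16Rik on the opposite strand. As no source states that reads were counted by strand, reads from that stretch cannot be assigned with certainty. B230344G16Rik itself has no row in the table. Itga6 (ENSMUSG00000027111, chromosome 2, 71786940 to 71856771, plus strand), the alpha partner of beta 4 and also a partner of beta 1 in laminin receptors, was at 2051 and 1876 scaled counts in the wt libraries, 1976 and 1834 in the mdx libraries and 2025 and 1961 in those of mdx/Ripk3mKO. Its values overlapped between all groups, and the log2 difference between mdx/Ripk3mKO and mdx was 0.07 ± 0.06 (limma adjusted p = 0.744). The ratio of Itgb4 to Itga6, per length, was 1.2 in both wt libraries, 0.904 and 1.05 in those of mdx, and 1.16 and 1.43 in those of mdx/Ripk3mKO. The mdx libraries were lowest in this ratio too. With 2 libraries against 2, an exact permutation test cannot go below 0.333 two-sided, so the ratio was not tested.

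Itga4 (ENSMUSG00000027009, chromosome 2, 79255500 to 79333123, plus strand) was the other member that set the mdx libraries apart, in the opposite direction. It encodes the alpha chain that binds VCAM1 and fibronectin and is best known from leukocytes. Scaled counts were 70 and 74 in the wt libraries, 90 and 118 in the mdx libraries and 76 and 70 in those of mdx/Ripk3mKO. Both mdx libraries were above the other 4, and the mdx libraries differed from each other by 0.39 on the log2 scale. The log2 difference between mdx and wt was 0.51 ± 0.19 (95% interval 0.12 to 0.91, limma adjusted p = 0.65). For mdx/Ripk3mKO against mdx it was -0.49 ± 0.19 (95% interval -0.89 to -0.10, limma adjusted p = 0.323), so neither passed. Against wt, mdx/Ripk3mKO stood at 0.02 ± 0.19 (95% interval -0.38 to 0.42). On the opposite strand, exons of Cerkl share 8.04% of the exon bases of Itga4.

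Leukocyte markers, given here because alpha 4 is a leukocyte integrin, were scarce. Of 7 leukocyte and macrophage markers 2 had a row, Cd68 and Itgam, and Ptprc, the pan-leukocyte marker, had none. The summed level of those 2 was 1.64 to 2.03 CPM in wt, 1.47 to 1.65 in mdx, and 1.33 to 1.88 in mdx/Ripk3mKO. The 2 genes ran opposite ways. Itgam, a leukocyte integrin chain, had 16 and 15 scaled counts in the mdx libraries, 8 and 11 in those of wt and 5 and 8 in those of mdx/Ripk3mKO, highest in mdx as Itga4 was. Cd68 had 15 and 19 in the mdx libraries, below the 26 and 31 of wt and the 23 and 31 of mdx/Ripk3mKO. For Itgb4, a subunit of epithelia, 2 of 7 epithelial markers had a row, with a sum of 0.578 to 0.580 CPM in wt, 0.776 to 0.809 in mdx and 0.578 to 0.808 in mdx/Ripk3mKO, and Krt5, Krt14, Epcam and Cdh1 had none. Of 8 endothelial markers 5 had a row, summing to 2.41 to 3.58 CPM. Of 7 smooth muscle and pericyte markers 4 had a row, with a sum of 1940 to 2424 CPM in wt, 1818 to 2540 in mdx and 2198 to 2357 in mdx/Ripk3mKO. Most of that sum was Acta2, which activated muscle cells also express. Acta2 did not follow Itga4: the mdx libraries held its highest and its lowest value, 51960 and 35974 scaled counts, against 38970 to 49293 in the other libraries. The other 3 were highest in both mdx libraries, as Itga4 was. Pdgfrb, the receptor that marks pericytes, had 409 and 444 scaled counts in the mdx libraries, 333 and 309 in those of wt and 330 and 248 in those of mdx/Ripk3mKO. Abcc9 had 1008 and 1030 against 614 to 928 in the other libraries, and Rgs5 had 22 and 27 against 11 to 20. Cspg4, which pericytes also express but which is not on this list, ran the other way. It had 1354 and 1185 scaled counts in the mdx libraries against 1602 to 1773 in the others. Of 6 fibroadipogenic markers 3 had a row, summing to 2.70 to 3.93 CPM, and the platelet list held Itga2b alone of 5. The part of other cell types in the results for Itga4 and Itgb4 was not tested.

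Itga3 (ENSMUSG00000001507, chromosome 11, 95044474 to 95076801, minus strand), a laminin receptor chain, varied more within groups than between them. Scaled counts were 3984 and 3284 in the wt libraries, 3627 and 3187 in the mdx libraries and 3291 and 4149 in those of mdx/Ripk3mKO. Each group held 1 high and 1 low library. The libraries of a group differed by 0.28, 0.19 and 0.33 on the log2 scale in wt, mdx and mdx/Ripk3mKO, where the median over all tested genes was 0.11 in each group. The largest difference between group means was 0.12 ± 0.17, for mdx/Ripk3mKO against mdx (limma adjusted p = 0.853).

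Itga5 (ENSMUSG00000000555, chromosome 15, 103344286 to 103366763, minus strand), which with beta 1 forms the classical fibronectin receptor, had the smallest spread over the 6 libraries relative to its level. Its scaled counts were 1891 and 1785 in the wt libraries, 1861 and 1770 in the mdx libraries and 1913 and 1802 in those of mdx/Ripk3mKO. All groups overlapped, between 1770 and 1913. The 95% interval of the log2 difference ran from -0.15 to 0.11 for mdx against wt and from -0.10 to 0.16 for mdx/Ripk3mKO against mdx.

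Itgav (ENSMUSG00000027087, chromosome 2, 83724397 to 83806916, plus strand), the alpha chain of the vitronectin receptors and of those that activate latent TGF-beta, was at 2313 and 2894 scaled counts in the wt libraries, 2567 and 2747 in the mdx libraries and 2546 and 2472 in those of mdx/Ripk3mKO. The wt libraries held both the lowest and the highest value, and the mdx/Ripk3mKO values lay just below those of mdx. The log2 difference between mdx/Ripk3mKO and mdx was -0.08 ± 0.09 (limma adjusted p = 0.801), and the other differences were smaller.

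Itgb5 (ENSMUSG00000022817, chromosome 16, 33829665 to 33949153, plus strand), a beta partner of alpha v, was at 230 and 177 in the wt libraries, 261 and 230 in the mdx libraries and 255 and 229 in those of mdx/Ripk3mKO. Library 2 of wt was the lowest by a wide gap. The log2 difference from wt was 0.28 ± 0.14 in mdx (limma adjusted p = 0.781) and 0.26 ± 0.14 in mdx/Ripk3mKO (adjusted p = 1). Without wt library 2 these were 0.09 and 0.07. Itgb3 (ENSMUSG00000020689, chromosome 11, 104608000 to 104670476, plus strand), the other beta partner of alpha v and the chain of the platelet fibrinogen receptor, was at 29 and 22 in the wt libraries, 26 and 30 in the mdx libraries and 25 and 21 in those of mdx/Ripk3mKO. At these low counts the 95% interval of the log2 difference between mdx and wt ran from -0.49 to 0.77, so neither the direction nor the size of a difference can be read.

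**Figure D3:**
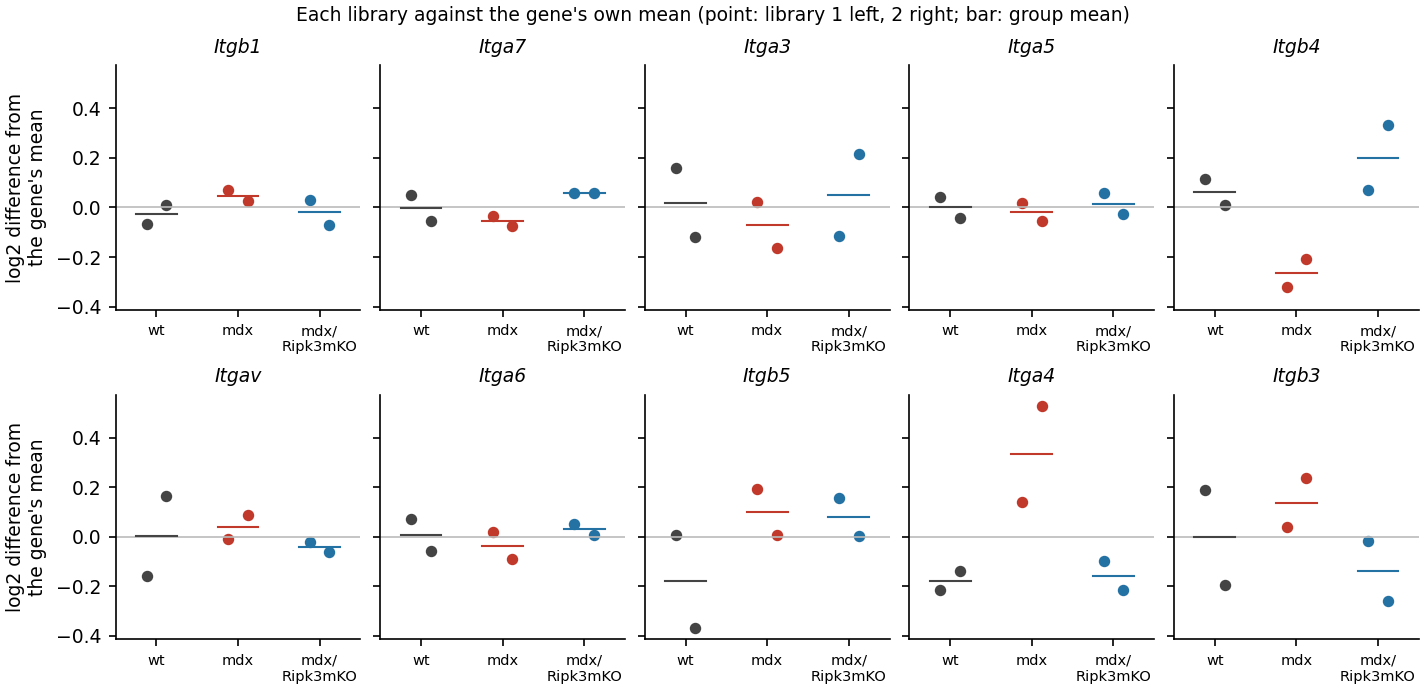
Log2 difference of each library from the gene's own mean over the 6 libraries for the 10 integrin subunits; points are libraries (1 left, 2 right) and bars are group means. Itgb4 is lowest and Itga4 highest in both mdx libraries, while Itga3 splits each group into a high and a low library 0.19 to 0.33 apart.

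Counted over the members, Itgb4 in mdx/Ripk3mKO against mdx was the only difference past the threshold. The largest difference between group means exceeded the largest difference within a group for 3 of 10 members, Itga4, Itga7 and Itgb4. That count was not made over all genes, so it does not tell if the members differ from them. In mdx against wt, no member passed the threshold by limma, where 0.0071% of all genes did, and 2 had an unadjusted p under 0.05, as did 6.46% of all genes. The groups did not overlap for 3 members, against 35.9% of all genes. The members were split evenly, 5 higher and 5 lower (49.1% of all genes were higher), with a median log2 difference of 0.01 (all genes 0.00). For mdx/Ripk3mKO against mdx 1 member passed, 3 had an unadjusted p under 0.05 where 11.6% of all genes did, and 5 did not overlap, against 41.3% of all genes. Of those 5, Itga4, Itgav and Itgb3 were lower (20.3% of all genes) and Itga7 and Itgb4 higher (21% of all genes). Again 5 members were higher and 5 lower (49.2% of all genes were higher), with a median of 0.01. Set against wt, mdx/Ripk3mKO had no member that passed by limma (0% of all genes), none had an unadjusted p under 0.05 (3.32% of all genes), and 1 did not overlap, against 29.4% of all genes. There 8 were higher and 2 lower (50.6% of all genes were higher), with a median of 0.02 (all genes 0.00).

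**Figure D4:**
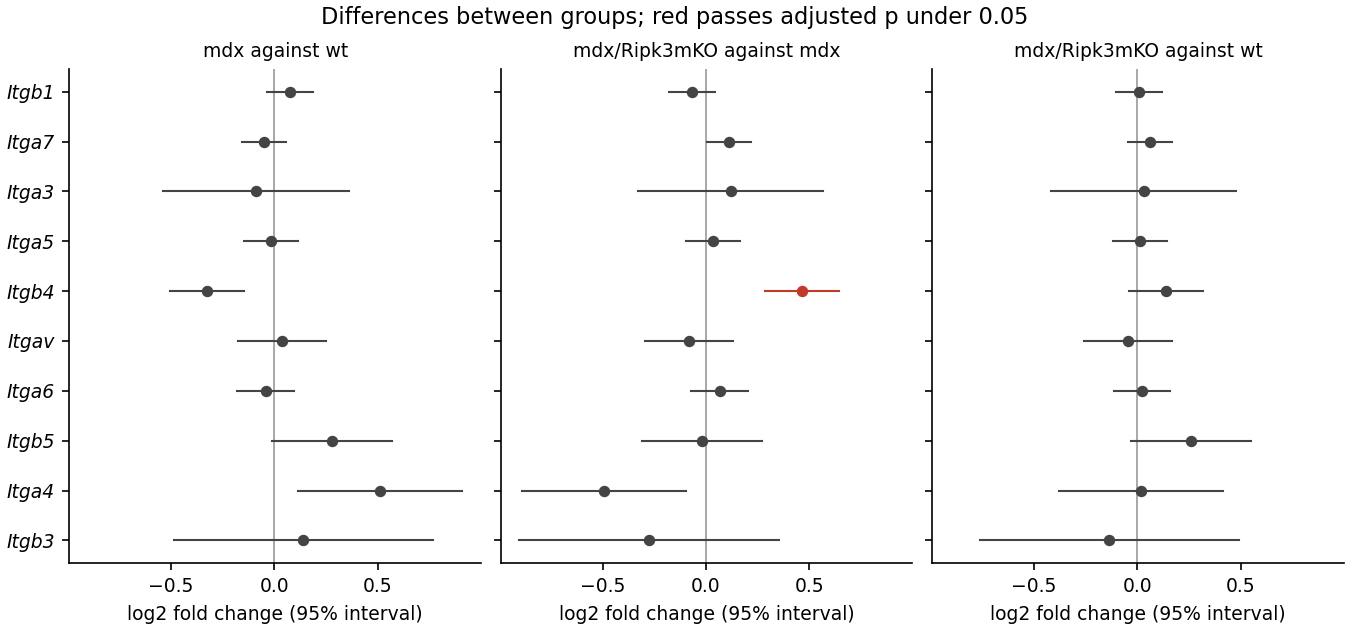
Log2 fold change (points) and 95% interval (lines) of the 10 integrin subunits in the 3 comparisons, ordered by level, with red for an adjusted p under 0.05. Itgb4 in mdx/Ripk3mKO against mdx, at 0.47, is the only red value among the 30 drawn, and the intervals of Itgb1, Itga7, Itga5 and Itga6 are the narrowest.

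The differences of the members ran with the GC content of their transcripts. Itga4, the member with the lowest GC content (41.1%), had the lowest log2 difference between mdx/Ripk3mKO and mdx, and Itgb4, with the highest, had the highest. Over the 10 members the Spearman correlation of this log2 difference with GC content was 0.87, and for mdx against wt it was -0.76. These are descriptions over genes of the same libraries. Over 10001 genes with a mean of at least 100 scaled counts the same correlations were 0.41 and -0.24, so the libraries differed in this respect for genes at large. The 349 such genes within 1 percentage point of the GC content of Itgb4 had a median log2 difference of 0.11 between mdx/Ripk3mKO and mdx and of -0.06 between mdx and wt. After correction of each library for GC content and exon length, Itgb4 was at 0.38 ± 0.08 for mdx/Ripk3mKO against mdx and did not pass (adjusted p = 0.0845). The corrected difference of Itga4 was -0.38 (adjusted p = 0.434). The median of all genes in this comparison was 0.04 after the correction. Over the members the correlation with GC content was then 0.55 for mdx/Ripk3mKO against mdx and -0.59 for mdx against wt. For mdx/Ripk3mKO against wt it was 0.60 before the correction and 0.018 after it.

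**Figure D5:**
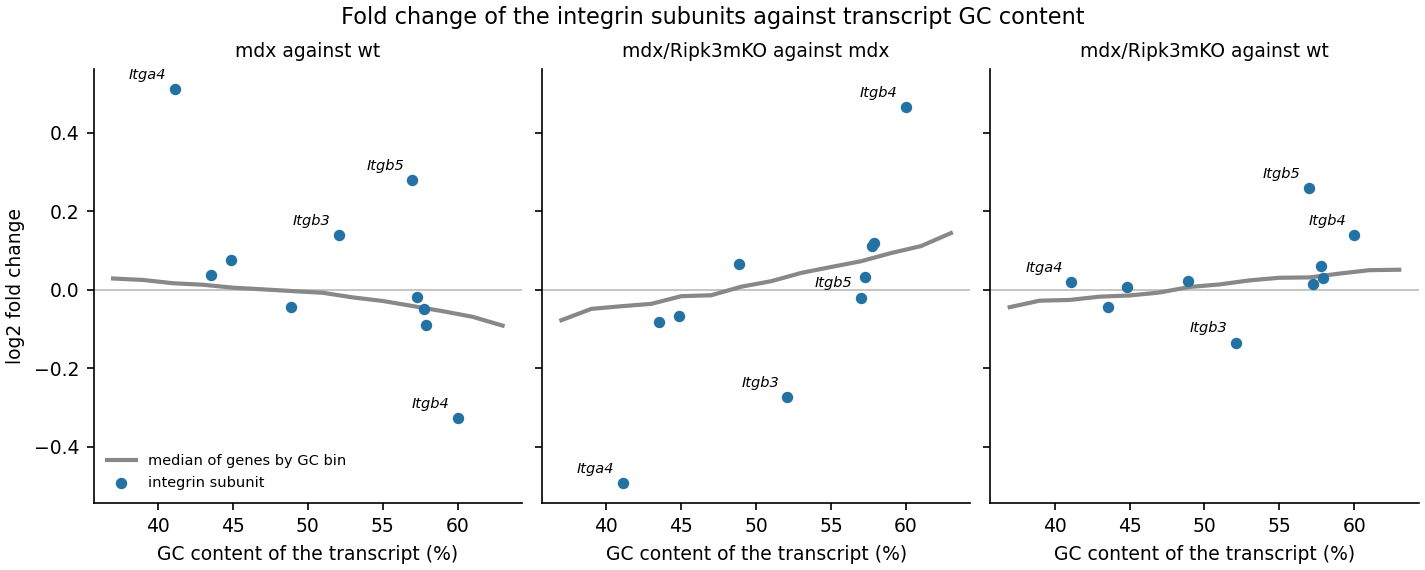
Log2 fold change of the 10 integrin subunits (points) against the GC content of each gene's longest transcript (%), with the median of genes averaging at least 100 scaled counts in bins of 2 percentage points (grey line), for the 3 comparisons. For mdx/Ripk3mKO against mdx the grey line climbs from -0.08 to 0.14, and Itga4 at -0.49 and Itgb4 at 0.47 lie beyond it on either side.

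By likeness of pattern over the 6 libraries, the genes closest to Itgb4 among 9729 compared were Tbl3 (Pearson r 0.997), Pmf1 (0.997) and Rpn2 (0.994). Those closest to Itga4 were Slc43a3 (0.991), Osbpl8 (0.991) and Bmp1 (0.987). Pearson r takes no account of the size of a change. Rpn2 ran from 4898 to 5399 scaled counts where Itgb4 ran from 1388 to 2181, and Bmp1 from 1211 to 1285 where Itga4 ran from 70 to 118. These are descriptions over 6 points that share their library preparation. Among the members themselves Itga5 and Itga6 were most alike (r 0.92), and Itga6 and Itgav most opposed (r -0.85), over small differences in each case.

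The table held 10 further integrin subunit genes. Itgb6, a partner of alpha v in epithelia that activates latent TGF-beta, was the most abundant of them, with 2110 to 2437 scaled counts per library and a mean level per length of 15.3, against 11.6 for Itgav. Itgb8, another partner of alpha v, was at 124 to 160 scaled counts. The other 8 (Itga1, Itga2b, Itga8, Itga9, Itga10, Itga11, Itgal and Itgam) were at 78 or less in every library. Of the 9 tested, none passed in any comparison by limma, and 1 had an unadjusted p under 0.05, in mdx/Ripk3mKO against mdx, where 11.6% of all genes did. It was Itgam, with a log2 difference of -1.17 ± 0.45 there (limma adjusted p = 0.333) and 0.67 ± 0.45 in mdx against wt, at 5 to 16 scaled counts per library.

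The adhesome list holds genes whose proteins link integrins to actin and to signalling. Of 32 tested genes of a list of 35 adhesome components, 24 were lower in mdx than in wt and 8 higher (49.1% of all genes were higher). The median log2 difference of the list was -0.07 (all genes 0.00). None passed by limma (0.0071% of all genes), and 4 had an unadjusted p under 0.05 (6.46% of all genes). With mdx/Ripk3mKO set against the same mdx libraries, 26 of 32 were higher (49.2% of all genes), with a median of 0.07. None passed by limma (0.206% of all genes), and 9 had an unadjusted p under 0.05 (11.6% of all genes). Against wt, 23 were higher (50.6% of all genes), with a median of 0.03 (all genes 0.00). There none passed by limma (0% of all genes) and 1 had an unadjusted p under 0.05 (3.32% of all genes). The median GC content of the list was 53.5%, against 49.5% for all tested genes. With the GC and length correction its median was -0.06 in mdx against wt, where that of all genes was -0.02, and 0.09 in mdx/Ripk3mKO against mdx, where that of all genes was 0.04. Parvb, a parvin of the complex with integrin-linked kinase, was at 4433 and 4366 scaled counts in the wt libraries, 3776 and 3924 in the mdx libraries and 4428 and 4577 in those of mdx/Ripk3mKO. Both mdx libraries were below the other 4, with log2 differences of -0.19 ± 0.05 from wt (adjusted p = 0.461) and 0.23 ± 0.05 for mdx/Ripk3mKO over mdx (adjusted p = 0.0951). The adhesion kinase Ptk2b was at -0.33 ± 0.12 and 0.37 ± 0.12 in these comparisons, and the scaffold Bcar1 at -0.15 ± 0.07 and 0.21 ± 0.07. For mdx/Ripk3mKO against wt the smallest p belonged to Rsu1, which binds the same kinase complex (0.15 ± 0.06), Itgb1bp1, which binds the beta 1 tail (-0.18 ± 0.09), and the kinase Src (0.14 ± 0.08).

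Of 26 tested genes of a list of 33 matrix and cell-surface ligands, 21 were higher in mdx than in wt (49.1% of all genes). The median log2 difference of the list was 0.12 (all genes 0.00). None passed by limma (0.0071% of all genes), and 5 had an unadjusted p under 0.05 (6.46% of all genes). In mdx/Ripk3mKO 18 were lower than in mdx and 8 higher (49.2% of all genes were higher), with a median of -0.13 (all genes 0.00). Of the 26, 5 had an unadjusted p under 0.05 (11.6% of all genes). Past the threshold was 1 ligand, which was higher (0.0852% of all genes were called as higher). That gene was Thbs1, a matrix protein that alpha v beta 3 and beta 1 integrins can bind, with 35940 and 34153 scaled counts in the wt libraries, 32098 and 30023 in the mdx libraries and 37146 and 37503 in those of mdx/Ripk3mKO. Its mdx libraries were the lowest, as for Itgb4, and the log2 difference was 0.27 ± 0.05 (limma adjusted p = 0.0473). Mfge8, which carries an RGD motif for alpha v integrins, was at -0.16 ± 0.06 in mdx against wt and 0.19 ± 0.06 in mdx/Ripk3mKO against mdx, and the basement membrane collagen Col4a1 at 0.22 ± 0.08 in mdx against wt. Tgfb2, a TGF-beta ligand, was at -0.38 ± 0.08 between mdx/Ripk3mKO and mdx (adjusted p = 0.0657) and -0.21 ± 0.08 between mdx/Ripk3mKO and wt. In that last comparison 14 ligands were higher (50.6% of all genes) and 12 lower, with a median of 0.01 (all genes 0.00). None passed by limma (0% of all genes) and 1 had an unadjusted p under 0.05 (3.32% of all genes). Thbs1 was at 0.09 ± 0.05 there and Lamb3, a chain of a laminin that alpha 6 beta 4 binds, at 0.15 ± 0.10. The median GC content of the ligand list was 52.5%, against 49.5% for all tested genes. With the GC and length correction its median was 0.13 in mdx against wt (all genes -0.02). It was then -0.15 in mdx/Ripk3mKO against mdx (all genes 0.04) and 0.02 in mdx/Ripk3mKO against wt (all genes 0.02).

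Of 22 membrane and cytoplasmic partners of integrins, all tested, 14 were lower in mdx than in wt and 8 higher (49.1% of all genes were higher). The median log2 difference of the list was -0.01 (all genes 0.00). None passed by limma (0.0071% of all genes), and 4 had an unadjusted p under 0.05 (6.46% of all genes). In mdx/Ripk3mKO 14 were higher than in mdx (49.2% of all genes), with a median of 0.06 (all genes 0.00). Of the 22, 8 had an unadjusted p under 0.05 (11.6% of all genes). Of these 2 passed, both higher (0.0852% of all genes). They were Cspg4, a membrane proteoglycan, at 1735 and 1706 scaled counts in mdx/Ripk3mKO against 1354 and 1185 in mdx (log2 difference 0.44 ± 0.07, limma adjusted p = 0.0289), and the syndecan Sdc3, at 5997 and 6609 against 4787 and 5073 (0.35 ± 0.06, adjusted p = 0.0289). In wt, Cspg4 was at 1773 and 1602 and Sdc3 at 6054 and 6109, so both were lowest in the mdx libraries. The galectin Lgals3 was at 0.25 ± 0.06 (adjusted p = 0.113), and the tetraspanin Cd82 at -0.15 ± 0.06 in mdx against wt. Compared with wt, 18 were higher in mdx/Ripk3mKO (50.6% of all genes), with a median of 0.05 (all genes 0.00). None passed by limma (0% of all genes) and 1 had an unadjusted p under 0.05 (3.32% of all genes). The smallest p there belonged to Lgals3 (0.15 ± 0.06), the immunoglobulin-family protein Bsg (0.12 ± 0.06) and the urokinase receptor Plaur (0.14 ± 0.07). The median GC content of this list was 55.1%, against 49.5% for all tested genes. With the GC and length correction its median in mdx against wt was -0.02, as was that of all genes. In mdx/Ripk3mKO against mdx it was 0.07 (all genes 0.04), and in mdx/Ripk3mKO against wt 0.04 (all genes 0.02).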

How the data were processed

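The deposited values are the authors' counts per gene after scaling to a common library level and rounding, and they are handled here as a score. Their median-of-ratios size factors are equal to within 0.00039, as in a table already scaled. Tools named by the submitters' processing notes are STAR 2.6.1d, Trimmomatic 0.36, DESeq2 1.18.1 and featureCounts 1.6.3, on mm10, with no role or order given for any. Per the deposited values, each gene reached at least 10 in 1 library.

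limma 3.58.1 (R 4.3.3, statmod 1.5.0) was fitted to log2(scaled count + 1) in 1 model over all 6 libraries with genotype as the only term, a variance trend and robust fitting, and 3 residual degrees of freedom. Testing covered the 14077 genes that reached 10 in 2 or more libraries, with Benjamini-Hochberg adjustment over all of them and calls at an adjusted p under 0.05. Folds on this scale understate the change of low genes. Errors are moderated standard errors unless SD is written. Exon length (merged exons) and GC content (longest transcript) came from GENCODE M21, which holds 99.9% of tested genes. Of each list, the 3 genes with the smallest p per comparison are named, with any past the threshold, and patterns alike were sought for the 2 members with the smallest F-test p among genes averaging at least 100. Alternatives were pseudocounts of 0.5 and 5, no filter, other scalings, other fits, a GC and length correction, and leaving out each library. The members and lists were chosen with earlier results of these data known. Depth before scaling is known only through the estimated divisors, and the scaled totals give no counting error of their own. The result of 1 further marker list is not reported here.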

Additional observations from a re-analysis of the deposited data

How the results depend on the processing

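In mdx against wt, the number of integrin subunits past the threshold was 0 as reported and 1 (Itgb4) in the 4 libraries of those groups alone, and lay between 0 and 1 when single libraries were left out. In mdx/Ripk3mKO against mdx it was 1 as reported. It was 0 with library totals in place of the deposited scaling, without a variance trend or robust fitting, in the 4 libraries alone, and under the GC and exon length correction, and between 0 and 1 when single libraries were left out. The adjusted p of Itgb4 in that comparison ran from 0.00106 to 0.468 over the 14 settings. Over all genes 29 were called in that comparison. In the 4 libraries alone 2 were called, all among the 29, and after the GC correction 18, with 17 among the 29. Without a variance trend or robust fitting 1 gene was called, which was not among the 29. The number changed as well when single libraries were left out. The 1 call of mdx against wt became 103 in the 4 libraries alone or without either mdx/Ripk3mKO library, and 0 without any 1 of the others. The 0 calls of mdx/Ripk3mKO against wt became 20 without mdx/Ripk3mKO library 2. In mdx/Ripk3mKO against wt the number of subunits was 0 in every setting, the replicate block included (0 genes called). The pairing check gave a correlation of 0.00858 between the deviations of the libraries numbered 1 of wt and mdx/Ripk3mKO, so the numbers were not taken as pairs, and the mdx columns carry none. The cause of these changes was not tested.

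Sign changes touched small, uncalled differences. After the GC correction Itga5 was at 0.0075, -0.018 and -0.010 in mdx against wt, mdx/Ripk3mKO against mdx and mdx/Ripk3mKO against wt, and Itgav at -0.0063 and 0.0017 in the first and second. The median of all genes was then -0.022, 0.037 and 0.016 in the same order, so a sign near 0 depends on that shift. In mdx/Ripk3mKO against wt Itgb1 was at -0.018 with quantile normalization and -0.0040 with library totals. When single libraries were left out, the log2 differences that follow crossed 0. In mdx against wt, Itga3 ranged from -0.23 to 0.050, Itga5 from -0.059 to 0.024, Itga6 from -0.11 to 0.021, Itga7 from -0.10 to 0.0028, Itgav from -0.12 to 0.20 and Itgb3 from -0.052 to 0.33. In mdx/Ripk3mKO against mdx, Itga3 ranged from -0.047 to 0.29, Itga5 from -0.010 to 0.076 and Itgb5 from -0.11 to 0.071. In mdx/Ripk3mKO against wt, Itga3 ranged from -0.14 to 0.20, Itga4 from -0.040 to 0.077, Itga5 from -0.028 to 0.058, Itga6 from -0.042 to 0.087, Itgav from -0.21 to 0.12, Itgb1 from -0.044 to 0.060 and Itgb3 from -0.33 to 0.056. A group left with 1 library is assumed to vary like the others. Low counts limit Itga4 and Itgb3.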
